A study of Mus musculus with 24 samples.

Results

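Transcripts of 8 immune checkpoint and adhesion ligands were followed through the reprogramming of neural precursor cells (NPCs) into induced pluripotent stem cells, with and without early interferon γ (IFNγ). The 8 genes, Cd274, Pdcd1lg2, Ido1, Icam1, Vcam1, Cd40, Cd47 and Lgals9, were chosen by name, matched to the identifiers of the count table through GENCODE vM21, and all 8 were found among the 37315 genes of that table. The chosen genes encode molecules by which a cell binds, activates or restrains lymphocytes and phagocytes, with Ido1 as an enzyme that acts on them through a metabolite. The RNA-seq data comprised 24 libraries, 2 for each of 12 populations: embryonic stem cells (ESCs), NPCs, and both arms, control and IFNγ, at day 2, at day 5 and at day 7, the last sorted into negative, medium and high gates of X-GFP. The cytokine, at 10 ng/ml, was present during days 0 to 5, so the day 7 cells had been without it since day 5.

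All populations derived from PaX cells, a female hybrid line of 129S1/SvImJ and CAST/EiJ descent. They shared a GFP reporter in the Hprt gene of the M. musculus X, a truncated Tsix, a doxycycline-inducible MKOS cassette (c-Myc, Klf4, Oct4 and Sox2) with its transactivator, inserted in Sp3, and an RFP reporter driven by a Nanog promoter. ESCs grew in serum with LIF, and NPCs with EGF and bFGF, from which cells negative for SSEA1, RFP and GFP were sorted. Both arms of reprogramming received doxycycline, ascorbic acid and LIF on irradiated male mouse embryonic fibroblast feeders. The day 2 cells were sorted as negative for the CFSE dye with which the feeders had been stained, and the day 5 and day 7 cells as positive for SSEA1. The labels number the replicates but do not say whether they came from separate cultures. The study's methods call the 2 replicates of its RNA-based pluripotency score independent, without saying there how they were separated. The p-values therefore measure the spread between these libraries only.

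Interferon γ binds a receptor of IFNGR1 and IFNGR2, which signals through the kinases JAK1 and JAK2. Promoters of responding genes often hold GAS elements, or elements of the ISRE type to which the induced factor IRF1 can bind, and in many cell types this pathway raises PD-L1, IDO1 and ICAM-1. PD-L1 (Cd274) and PD-L2 (Pdcd1lg2) engage the inhibitory receptor PD-1 on T cells, IDO1 degrades tryptophan to kynurenine, galectin-9 (Lgals9) binds glycans on receptors such as TIM-3, and CD47 signals to SIRPα on macrophages and restrains phagocytosis. CD40 is the receptor of CD40 ligand and signals through TRAF proteins to NF-κB, while ICAM-1 and VCAM-1 hold leukocytes by the integrins αLβ2 and α4β1.

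The genes lie on 7 chromosomes of GRCm38/mm10, with Cd274 (chromosome 19, 29367455 to 29388095, plus strand) and Pdcd1lg2 (chromosome 19, 29410919 to 29471161, plus strand) as neighbors 22823 bases apart. Because they are next to each other on the same strand and behaved very differently, the 250 bases before their RefSeq starts are shown, at chr19:29367188-29367437 and chr19:29410669-29410918. The same window is shown for Icam1 (chr9:21015690-21015939, plus strand), which was higher with IFNγ at both times of treatment. It is also shown for Lgals9 (chr11:78984925-78985174, minus strand), which was called higher with IFNγ at day 5 and lower in the gates of day 7. All are written 5′ to 3′ from RefSeq on GRCm38.p6, and capitals mark a match to a GAS element (TTCNNNGAA) or to an ISRE core (GAAA, any 2 bases, GAAA) on either strand.
Cd274: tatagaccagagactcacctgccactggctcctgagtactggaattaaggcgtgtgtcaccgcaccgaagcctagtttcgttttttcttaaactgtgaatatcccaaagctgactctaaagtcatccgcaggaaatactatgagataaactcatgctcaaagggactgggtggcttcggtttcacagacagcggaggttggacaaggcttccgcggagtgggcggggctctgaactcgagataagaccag
Pdcd1lg2: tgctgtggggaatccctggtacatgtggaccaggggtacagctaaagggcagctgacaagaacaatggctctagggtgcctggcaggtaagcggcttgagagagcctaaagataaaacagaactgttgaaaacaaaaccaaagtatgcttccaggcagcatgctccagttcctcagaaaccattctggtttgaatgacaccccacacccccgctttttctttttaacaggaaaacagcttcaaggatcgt
Icam1: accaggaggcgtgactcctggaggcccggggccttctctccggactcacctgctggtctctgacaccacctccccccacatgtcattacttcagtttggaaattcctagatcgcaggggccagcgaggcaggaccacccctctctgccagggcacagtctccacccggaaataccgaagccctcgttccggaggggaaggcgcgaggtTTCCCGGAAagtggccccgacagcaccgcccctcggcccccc
Lgals9: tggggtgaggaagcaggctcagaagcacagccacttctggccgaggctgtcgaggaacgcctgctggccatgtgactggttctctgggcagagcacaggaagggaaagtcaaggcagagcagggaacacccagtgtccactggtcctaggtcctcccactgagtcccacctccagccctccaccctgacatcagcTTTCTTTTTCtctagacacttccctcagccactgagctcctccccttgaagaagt
The Icam1 window held 1 GAS match, from 42 to 34 bases before the start, and the Lgals9 window held 1 ISRE match on the opposite strand, from 55 to 46 bases before the start. The RefSeq start of Icam1 is 45 bases from its GENCODE start and, unlike the others shown, was not matched to the opening of a GENCODE transcript. Neither pattern was found in the windows of Cd274 and Pdcd1lg2. Of all 32851 windows of this length, 7.02% held the GAS letters and 2.98% the ISRE letters, so that a match describes the sequence and is not evidence of binding. Windows were found for 5 of the 8 genes, the other one being Cd47.

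The remaining genes were Ido1 (chromosome 8, 24584136 to 24597009, minus strand), Icam1 (chromosome 9, 21015985 to 21028817, plus strand), Vcam1 (chromosome 3, 116109949 to 116129688, minus strand), Cd40 (chromosome 2, 165055627 to 165072948, plus strand), Cd47 (chromosome 16, 49800533 to 49915010, plus strand) and Lgals9 (chromosome 11, 78962974 to 78984946, minus strand). Cd274, Pdcd1lg2, Icam1 and Vcam1 each overlap 1 gene annotated on the opposite strand. The libraries were stranded, but the strand setting of the counting is not given in the sources used here, so that reads of these antisense genes may not have been told apart.

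Between 24746109 and 37056508 reads per library were counted on genes. Summed normalized counts of 6 pluripotency genes were 116938 and 109340 in ESCs and 85.6 and 56.2 in NPCs, and those of 7 neural precursor genes 797 and 866 in ESCs and 47880.4 and 44694 in NPCs, so that both populations carried the markers of their labels. The 4 Y-linked genes listed as marks of the male feeders summed to 253 and 218 in day 2 controls and to 125 and 223 with IFNγ at day 2, and to at most 12.5 in every other library. The day 2 libraries therefore held RNA of male cells, and fewer cells of a type cannot be told apart from less RNA per cell in these bulk samples. A list of 9 fibroblast genes does not separate feeders from NPCs, since it summed to 33385 and 47585 in NPCs, to 74437 and 52978 in day 2 controls, and to 43096 and 38473 with IFNγ at day 2.

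**Figure D1:**
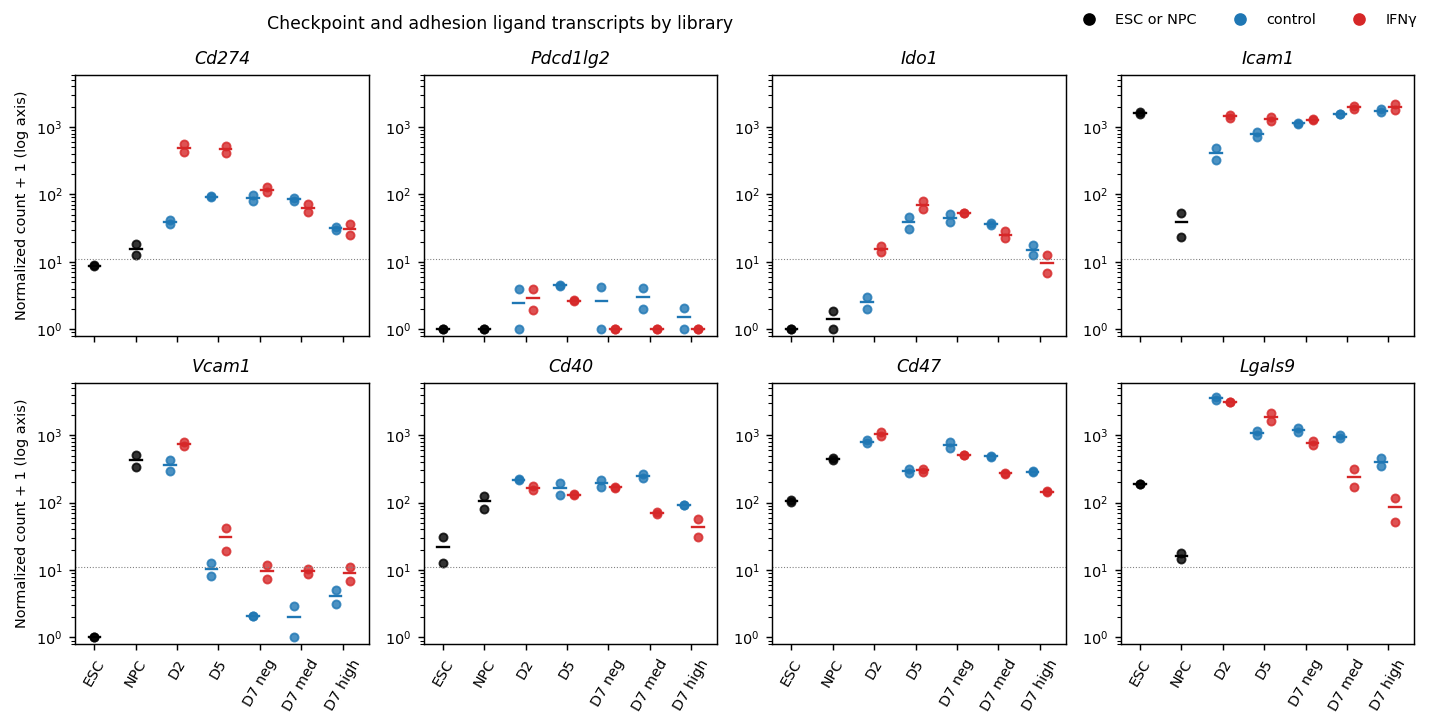
Normalized count + 1 on a log axis for each gene and population, with 1 point per library, a bar at the mean of the 2 libraries, controls in blue and IFNγ in red (D2, D5 and D7 are days 2, 5 and 7, and neg, med and high the X-GFP sorts), and a dotted line at a normalized count of 10. Cd274 stands highest in the day 2 and day 5 IFNγ libraries, at 415 to 562, Pdcd1lg2 never exceeds 3.55, and Lgals9 peaks in the day 2 controls at 3377 and 3652.

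Before reprogramming, ESCs and NPCs differed in most of these transcripts, in both directions. Icam1 reached 1552 and 1671 normalized counts in the ESC libraries against 22.4 and 52.7 in the NPC libraries, and Lgals9 191 and 189 against 13.6 and 16.7. Vcam1 showed the reverse, with 341 and 505 in NPCs and no read in either ESC library, as did Cd40, with 80.7 and 126 against 11.8 and 29.5. In each of these genes the libraries of the 2 populations did not overlap. How often this held over all genes was not counted, here or in the comparisons below. In ESCs relative to NPCs, Icam1 was higher by 5.51 ± 0.38 (log2 fold change ± SE, adjusted p = 3.89e-05) and Lgals9 by 3.57 ± 0.23 (adjusted p = 3.22e-05), whereas Cd40, Cd47 and Cd274 were lower by log2 fold changes of -2.37, -2.06 and -0.80. With Vcam1, at least 295-fold lower in ESCs against a floor of 3 reads over both libraries, 2 of the 6 tested genes were higher and 4 lower, among 42.2% and 43.4% of all genes tested, so that these counts are not particular to the ligands. Cd274 was low in both, at 7.86 and 7.61 in ESCs and 17.5 and 11.4 in NPCs, and its call was lost without ESC replicate 1 (adjusted p = 0.144) or ESC replicate 2 (adjusted p = 0.157). The tests throughout were two-sided limma tests on log2(normalized count + 1), over genes with a mean above 10 in the libraries compared, with a Benjamini-Hochberg adjusted p below 0.1 as a call.

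In the control arm, most of the ligands were higher by day 2 than in NPCs. Lgals9 made the largest step, from 13.6 and 16.7 to 3652 and 3377 normalized counts, a log2 difference of 7.77 ± 0.16. Icam1 rose to 489.8 and 325 (3.50 ± 0.43), Cd40 to 215 and 223 (1.11 ± 0.25), Cd47 to 756 and 836 (0.84 ± 0.11) and Cd274 to 40.7 and 35.7 (1.37 ± 0.33), while Vcam1, at 431 and 294, overlapped the NPC libraries. Thus 5 of 6 tested genes were higher and 0 lower, against 31.6% and 37.6% of all genes. These day 2 libraries are the ones with Y-linked reads, and the part of feeder RNA in the levels was not tested. The call of Cd40 was lost without day 2 control replicate 1 (adjusted p = 0.105) or replicate 2 (adjusted p = 0.116), and Vcam1 was called lower, by -0.51, without NPC replicate 1.

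From day 2 to day 5 the control arm split. Ido1, with 2.04 and 0.99 normalized counts at day 2, reached 29.5 and 45.3 at day 5 (log2 fold change 3.93 ± 0.46), Cd274 rose to 93.4 and 90.6 (1.25 ± 0.24), and Icam1 rose to 708 and 847 (0.96 ± 0.20). Vcam1 went the other way, to 11.8 and 7.10 (-5.13 ± 0.33), together with Lgals9, at 1006 and 1142 (-1.71 ± 0.09), and Cd47, at 311 and 277 (-1.43 ± 0.12). Of 7 tested genes, 3 were higher and 3 lower, against 34.9% and 35.6% of all genes, and the Y-linked sum fell to 5.89 and 2.66. The seventh, Cd40, at 198 and 131, missed the threshold (adjusted p = 0.118), and was called lower without day 5 control replicate 1 (-0.74, adjusted p = 0.0207).

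Between day 5 and the X-GFP-negative cells of day 7, only 2 of 6 tested control genes moved, both upward, against 34.2% of all genes higher and 29.5% lower. Cd47 rose to 802 and 652 (log2 fold change 1.3 ± 0.14) and Icam1 to 1110.3 and 1152 (0.55 ± 0.11), whereas Cd274, at 95.5 and 78.3, and Ido1, at 50.5 and 37.6, overlapped their day 5 libraries. Lgals9 (0.16) and Cd40 (0.26) also overlapped. Lgals9 was called higher without day 5 control replicate 2 (0.25, adjusted p = 0.0588) and Cd40 without day 5 control replicate 1 (0.56, adjusted p = 0.0166). Vcam1, not tested here, went from 22 reads to 2. Day 5 cells were not sorted on X-GFP, so that time and gate cannot be told apart here.

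Across the X-GFP gates of the day 7 controls the order of the genes was more uniform. Icam1 was the sole tested gene that was higher in the X-GFP-high than the X-GFP-negative cells, at 1659 and 1821 (log2 fold change 0.62 ± 0.07), and the other 5 were lower: Lgals9 at 458 and 349 against 1266 and 1132 (-1.58 ± 0.12), Ido1 at 16.5 and 11.7 (-1.58 ± 0.31), Cd274 at 32.0 and 28.8 (-1.48 ± 0.22), Cd47 at 298 and 279.7 (-1.32 ± 0.11) and Cd40 at 90.7 in both libraries (-1.08 ± 0.16). No library of these genes overlapped between the gates, a separation that was not counted over all genes. The counts, 1 higher and 5 lower of 6, stand beside 34.7% and 39.3% of all genes. X-GFP-medium controls lay between the gates for Icam1 (1537 and 1539), Lgals9 (993 and 895) and Ido1 (36.6 and 34.1), but not for Cd40, which was highest there (230.3 and 269). The summed pluripotency genes rose over the same gates, from 14319 and 16221 to 74850.2 and 78701.

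ESCs lay beyond the X-GFP-high controls in the same direction for 4 genes. Cd40 was lower in ESCs by a log2 fold change of -2.22, Cd274 by -1.84, Cd47 by -1.44 and Lgals9 by -1.07, so that 4 of 5 tested genes were lower and 0 higher, against 37.9% and 37.8% of all genes. Icam1 did not pass the test (-0.11, adjusted p = 0.168), but was called lower without ESC replicate 2 (-0.16, adjusted p = 0.0802) or without X-GFP-high control replicate 1 (-0.18, adjusted p = 0.0732). Ido1, without a read in ESCs and with 27 reads in the 2 X-GFP-high control libraries, was at least 9.76-fold lower in ESCs against the floor of 3 reads.

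At day 2, with IFNγ present, PD-L1 transcripts showed the largest response of the tested ligands. Cd274 was at 423 and 562 normalized counts with IFNγ and at 40.7 and 35.7 without it, a log2 fold change of 3.64 ± 0.20 or 12.5-fold (adjusted p = 0.000146). Its neighbor Pdcd1lg2 had 4 reads in the 2 IFNγ libraries and 3 in the 2 controls, a ratio of 1.28 with an exact 95% interval of 0.216 to 8.70, so that no response was detectable at this depth. Intervals of read ratios cover counting error only.

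The adhesion ligands were also higher at day 2. Icam1 stood at 1514 and 1379 with IFNγ against 489.8 and 325 (log2 fold change 1.86 ± 0.18, adjusted p = 0.00287), and Vcam1 at 692 and 795 against 431 and 294 (1.06 ± 0.18, adjusted p = 0.0276). The IFNγ libraries of both genes lay above both controls, but the call of Vcam1 was lost with all 24 libraries in 1 fit (adjusted p = 0.252). The fibroblast sum was lower with IFNγ in both libraries, and a sum of 7 leukocyte genes overlapped (210 and 326 against 280 and 238). The sum of 7 neural precursor genes was higher with IFNγ (17321 and 19004 against 13429 and 16913). Slc1a3, a glutamate transporter of that list, was at 1626 and 1783 against 659 and 783. The part of these features in the day 2 results was not tested. Cd47 was at 965 and 1098 against 756 and 836, a smaller difference of 0.37 ± 0.10 (adjusted p = 0.0895).

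Ido1 reached 15.9 and 12.9 normalized counts with IFNγ at day 2 from 2.04 and 0.99. These were 30 reads against 3, a ratio of 9.56 with an exact 95% interval of 2.97 to 49.0. Its mean over the 4 libraries was below 10, so it was not tested with the other genes. Lgals9, at 3105 and 3149.6 against 3652 and 3377, and Cd40, at 152 and 175 against 215 and 223, were below the controls in both libraries without passing the test (-0.17, adjusted p = 0.183, and -0.42, adjusted p = 0.17). In all, 4 of 6 tested genes were higher and 0 lower, beside 5.03% and 3.45% of all genes tested. At an unadjusted limma p below 0.05, Cd40 and Lgals9 were both lower, while edgeR and DESeq2 called 0 ligands lower. In the other comparisons of 2 populations with 0 ligands called in a direction, 0 tested ligands passed an unadjusted p of 0.05 in that direction, or were called by edgeR or DESeq2. The call of Cd47 did not hold without day 2 control replicate 1 (adjusted p = 0.289), day 2 control replicate 2 (adjusted p = 0.144) or day 2 IFNγ replicate 2 (adjusted p = 0.385), nor with values rescaled to the same total (adjusted p = 0.121).

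At day 5, the end of the treatment, the Cd274 libraries overlapped those of day 2. It was at 415 and 527 normalized counts with IFNγ against 93.4 and 90.6 in controls, a log2 fold change of 2.33 ± 0.18 or 5.04-fold (adjusted p = 0.0014). Icam1 was at 1217 and 1411 against 708 and 847 (0.76 ± 0.13, adjusted p = 0.0577). Lgals9, below its controls at day 2, was now above them, at 1642 and 2112 against 1006 and 1142 (0.80 ± 0.14, adjusted p = 0.0601).

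Ido1, at 60.4 and 79.1 against 29.5 and 45.3, and Vcam1, at 18.1 and 41.1 against 11.8 and 7.10, were above the controls in both libraries, but missed the threshold (0.90 ± 0.31, adjusted p = 0.205, and 1.48 ± 0.49, adjusted p = 0.198). Cd47, at 316 and 287 against 311 and 277, and Cd40, at 134 and 127 against 198 and 131, overlapped their controls. Thus 3 of 7 tested genes were higher and 0 lower, where 1.65% and 0.535% of all genes were. Those shares depended on single libraries, with 971 higher and 852 lower genes without day 5 IFNγ replicate 1 and 107 and 10 without replicate 2, against 249 and 81. Marker sums also moved at day 5, and their part in these results was not tested. With IFNγ the fibroblast list was at 2489.5 and 1582 against 4067.5 and 2829, and the pluripotency genes were at 18939 and 20794 against 15134 and 18334. The leukocyte list was at 779 and 1188 against 741 and 756, and the neural precursor list at 5399.9 and 4966 against 5754 and 5573. Without day 5 control replicate 1 or without day 5 IFNγ replicate 2, Cd274 alone was called (Icam1 adjusted p = 0.163 and 0.199, Lgals9 adjusted p = 0.173 and 0.147), and Vcam1 was called without day 5 IFNγ replicate 1 (2.05, adjusted p = 0.0597).

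**Figure D2:**
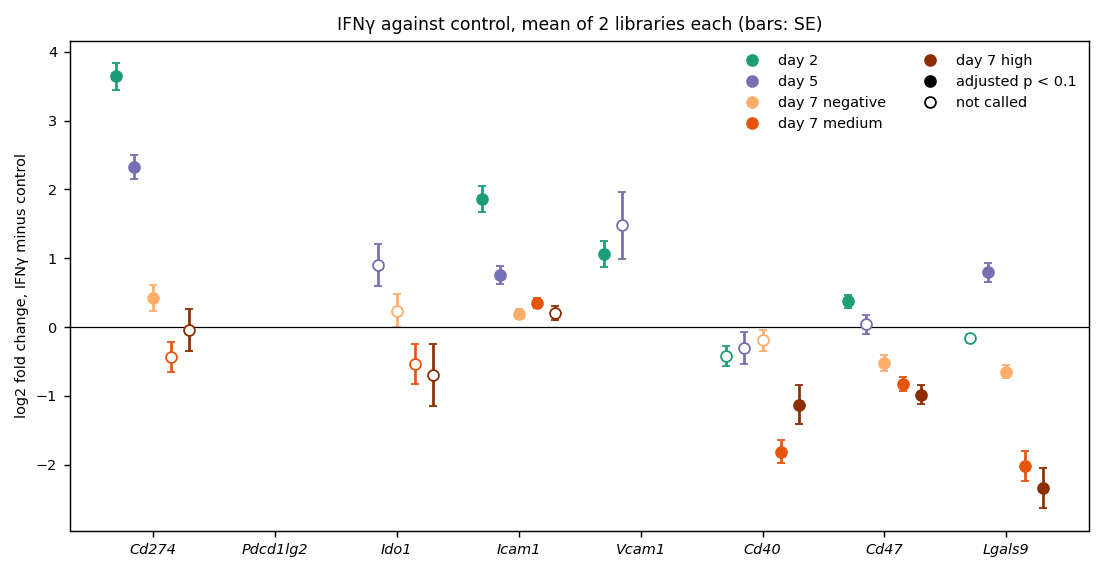
Log2 fold change of IFNγ minus control for each gene (horizontal axis) in the 5 populations (colors), with bars of 1 SE from limma, filled points for adjusted p below 0.1 and open points otherwise; genes with a mean of at most 10 have no point. Cd274 goes from 3.64 at day 2 to -0.05 in X-GFP-high cells of day 7, Lgals9 from 0.80 at day 5 to -2.34, and Cd47 from 0.37 at day 2 to -0.99.

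In X-GFP-negative cells of day 7, sorted after the days without IFNγ, the responses of Cd274 and Icam1 were small. Cd274 was at 127 and 106 normalized counts against 95.5 and 78.3 (log2 fold change 0.42 ± 0.19, adjusted p = 0.0845), and Icam1 at 1325 and 1252 against 1110.3 and 1152 (0.19 ± 0.08, adjusted p = 0.0616). Lgals9, at 723 and 808 against 1266 and 1132 (-0.65 ± 0.09, adjusted p = 0.000387), and Cd47, at 500.4 and 506 against 802 and 652 (-0.52 ± 0.11, adjusted p = 0.00359), were lower. Cd40, at 172 and 166 against 171 and 218, overlapped. Vcam1, not tested at day 7, had 17 reads with IFNγ against 2 without, a ratio of 8.07 with a 95% interval of 1.92 to 72.0.

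In these X-GFP-negative cells 2 of 6 tested genes were higher and 2 lower, but so were 31.1% and 30.8% of all genes. Rescaling all libraries to the same total moved the median of all genes from 0.02 to 0.17 and the share of higher genes among the calls from 50.3% to 66.3%. With all 24 libraries in 1 fit the calls of Cd274 (adjusted p = 0.156) and Icam1 (adjusted p = 0.55) were lost. The call of Cd274 was lost without control replicate 2 (adjusted p = 0.344) or IFNγ replicate 1 (adjusted p = 0.323). That of Icam1 was lost without control replicate 1 (adjusted p = 0.237), control replicate 2 (adjusted p = 0.115) or IFNγ replicate 1 (adjusted p = 0.255).

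In X-GFP-medium cells Lgals9, Cd40 and Cd47 were clearly lower after IFNγ. Lgals9 was at 170.2 and 316 normalized counts against 993 and 895 (log2 fold change -2.02 ± 0.22, adjusted p = 4.45e-05), Cd40 at 72.8 and 68.0 against 230.3 and 269 (-1.81 ± 0.16, adjusted p = 1.12e-05), and Cd47 at 279 and 268 against 497 and 478 (-0.83 ± 0.10, adjusted p = 9.2e-05). Icam1 was higher, at 2053 and 1861 against 1537 and 1539 (0.35 ± 0.07, adjusted p = 0.00219), a call lost with all 24 libraries in 1 fit (adjusted p = 0.254). The libraries of all 8 genes, not only of these 4, were apart between the arms, 2 above and 6 below their controls. This separation was not counted over all genes. It includes 2 genes near the floor, Pdcd1lg2 with 0 reads against 4 and Vcam1 with 16 against 2. Of 6 tested genes, 1 was higher and 3 lower, beside 33.3% and 29.6% of all genes.

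Cd274 was for the first time below its controls in X-GFP-medium cells, at 53.7 and 70.1 against 80.1 and 86.7, as was Ido1, at 21.3 and 27.2 against 36.6 and 34.1. Neither passed the test (-0.44 ± 0.21, adjusted p = 0.108, and -0.54 ± 0.29, adjusted p = 0.139), although both did without IFNγ replicate 2 (adjusted p = 0.0162 and 0.0812). Vcam1 had 16 reads against 2, a ratio of 8.57 (95% interval 2.01 to 76.8).

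X-GFP-high cells showed the same 3 genes lower and no gene higher, where 20.4% and 18.1% of all genes were. The call of Cd40 was lost without the filter on low values (adjusted p = 0.11). The log2 fold change of Lgals9 moved to -1.75 without IFNγ replicate 1 and to -2.93 without IFNγ replicate 2. Lgals9 was at 51.4 and 118 normalized counts against 458 and 349 (log2 fold change -2.34 ± 0.30, adjusted p = 0.000136), Cd40 at 56.0 and 30.0 against 90.7 in both controls (-1.13 ± 0.28, adjusted p = 0.0113), and Cd47 at 145 and 146 against 298 and 279.7 (-0.99 ± 0.14, adjusted p = 0.000331). Cd274, at 35.4 and 24.3 against 32.0 and 28.8, did not differ beyond its spread, and its small negative value turned positive without control replicate 1 or IFNγ replicate 2. Icam1, at 2206 and 1816 against 1659 and 1821, overlapped by a few counts (0.20 ± 0.10, adjusted p = 0.132) and was called without IFNγ replicate 2 (0.34, adjusted p = 0.000287), as was Ido1 (-1.15, adjusted p = 0.0894). The 14 reads of Vcam1 against 6 gave a ratio of 2.56 (95% interval 0.923 to 8.11).

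Other measured features moved with these day 7 results, and their part in them was not tested. The pluripotency genes summed to 24613 and 22639.6 with IFNγ against 14319 and 16221 in X-GFP-negative cells, to 63202 and 60218 against 35779 and 36968 in X-GFP-medium cells, and to 93717 and 90407 against 74850.2 and 78701 in X-GFP-high cells. The fibroblast list summed to between 759 and 1680 with IFNγ and to between 2459 and 6420.04 in controls, a difference carried mostly by Dcn. Its genes did not all go this way. Dcn and Fbn1 were lower with IFNγ in X-GFP-negative and X-GFP-medium cells, but Pdgfrb was higher in both. Pdgfrb was at 314 and 233 against 133 and 129 in X-GFP-negative cells, and at 280 and 207 against 109 and 149 in X-GFP-medium cells. Of 7 leukocyte genes, summing to between 569 and 1314 with IFNγ and to between 1205 and 3056 in controls at day 7, Cd68 made up most. Csf1r, the receptor of a macrophage growth factor, was at 37.6 and 26.7 with IFNγ against 216 and 129 in X-GFP-negative cells, at 13.4 and 12.5 against 99.8 and 48.5 in X-GFP-medium cells, and at 11.4 and 6.93 against 33.0 and 29.9 in X-GFP-high cells. Fcgr3, an Fc receptor, was between 43.9 and 88.4 with IFNγ and between 68.3 and 112 in controls. Cd14 was at 10.1 or below, Ptprc, which marks leukocytes, did not exceed 13.9, and Adgre1 and Lyz2 did not exceed 2.97. A list of 6 endothelial genes summed to 3047 and 3103 with IFNγ against 4347 and 4888 in X-GFP-negative cells. It summed to 4448 and 3961 against 4471 and 4537 in X-GFP-medium cells. In X-GFP-high cells the sums overlapped, at 5028 and 3988 against 5058 and 4795. Pecam1 made up most of these sums, and the gene named next does not stand for the list. Tie1, an endothelial receptor kinase, was lower with IFNγ, at 539 and 761 against 1153 and 1348 in X-GFP-negative, 256 and 426 against 927 and 1044 in X-GFP-medium and 98.3 and 118 against 481 and 408 in X-GFP-high cells. The 7 neural precursor genes summed to 5753 and 5912 with IFNγ against 5191 and 5111 in X-GFP-negative cells. They summed to lower values with IFNγ in the other gates, at 2141 and 2426 against 3311 and 3587 in X-GFP-medium and at 1415 and 1501 against 2131 and 2097 in X-GFP-high cells.

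The treated arm after day 5 was described by setting X-GFP-negative cells of day 7 beside day 5. Day 5 cells were not sorted on X-GFP, so that the end of treatment, time and gate cannot be told apart. Cd274 was at 127 and 106 against 415 and 527 normalized counts, a log2 fold change of -2.0 ± 0.18 (adjusted p = 0.000703). Lgals9 (-1.28 ± 0.13) and Vcam1 (-1.59 ± 0.48) were lower as well and Cd47 was higher (0.74 ± 0.12), while Icam1 was at 1325 and 1252 against 1217 and 1411 and overlapped. This gave 1 of 7 tested genes higher and 3 lower, beside 23.1% and 24.2% of all genes, and with rescaled values the share of higher genes among all calls was 59.4% and not 48.8%. Icam1 changed sign with rescaled values (0.05), and the call of Vcam1 was lost without day 5 IFNγ replicate 2 (-1.02, adjusted p = 0.146) or X-GFP-negative IFNγ replicate 1 (-1.25, adjusted p = 0.203). Ido1 (-0.42 ± 0.24, adjusted p = 0.206) was below day 5 in both libraries without a call, and Cd40 (0.37 ± 0.16, adjusted p = 0.107) above it.

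Whether the IFNγ response itself differed between populations was tested as an interaction, in which successive tests share the day 5 or the X-GFP-negative libraries. Between day 5 and day 2, 1 of 7 tested genes differed, beside 0.676% of all genes. This was Lgals9, whose response was higher at day 5 by 0.96 ± 0.16 on the log2 scale (adjusted p = 0.0506). With all 24 libraries in 1 fit it was not called (adjusted p = 0.332). The responses of Cd274 (-1.31 ± 0.27, adjusted p = 0.122), Icam1 (-1.10 ± 0.26, adjusted p = 0.176) and Ido1 (-1.74 ± 0.53, adjusted p = 0.331) were smaller at day 5 without passing the test. The call of Lgals9 was lost without day 2 control replicate 1 (adjusted p = 0.223), day 2 control replicate 2 (adjusted p = 0.157), day 2 IFNγ replicate 1 (adjusted p = 0.208), day 2 IFNγ replicate 2 (adjusted p = 0.199) or day 5 control replicate 1 (adjusted p = 0.15). That of Icam1 was gained without day 2 control replicate 1 (-1.39, adjusted p = 0.0382).

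From day 5 to the X-GFP-negative cells of day 7 the response of 4 of 7 tested genes was lower, where 40.3% of all genes differed in either direction. The end of treatment, time and gate cannot be told apart in these 4 differences. It was lower for Cd274 by -1.91 ± 0.26 (adjusted p = 0.00127), for Lgals9 by -1.44 ± 0.18 (adjusted p = 0.00102), for Icam1 by -0.57 ± 0.15 (adjusted p = 0.0202) and for Cd47 by -0.56 ± 0.18 (adjusted p = 0.0418). Icam1 lost its call with all 24 libraries in 1 fit (adjusted p = 0.222). With rescaled values the median of all genes in this test moved from -0.01 to 0.13, the share of higher genes among the calls from 44.2% to 63.0%, and Cd47 lost its call (-0.41, adjusted p = 0.106). Cd47 also lost it without day 5 control replicate 2 (adjusted p = 0.117), X-GFP-negative control replicate 1 (adjusted p = 0.171), X-GFP-negative IFNγ replicate 1 (adjusted p = 0.102) or replicate 2 (adjusted p = 0.106).

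Within day 7, the response in X-GFP-high cells was lower than that in X-GFP-negative cells for 2 of 6 tested genes, Lgals9 (-1.70 ± 0.40, adjusted p = 0.0168) and Cd47 (-0.46 ± 0.17, adjusted p = 0.0839), beside 22.8% of all genes in either direction. Rescaled values moved the median of all genes from -0.03 to -0.20 and the share of higher genes among the calls from 41.4% to 13.9%, added Cd40 (-1.10, adjusted p = 0.0416) and turned Icam1 from 0.02 to -0.15. The call of Cd47 was lost when any library other than X-GFP-negative control replicate 1 was left out (adjusted p = 0.116 to 0.260), Cd40 was called without X-GFP-high IFNγ replicate 1 (-1.37, adjusted p = 0.00869), and Ido1 without X-GFP-high IFNγ replicate 2 (-1.39, adjusted p = 0.0773).

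Per kilobase of annotated exon, the ligand with the most transcript changed with the population. Lgals9 led in the day 2 controls, at 1644 ± 91.0 normalized counts per kb (SD, n = 2), and in all other populations of days 2 and 5 and in X-GFP-negative cells and X-GFP-medium controls of day 7. Icam1 led in ESCs (370 ± 19.4), in X-GFP-medium cells after IFNγ (449 ± 31.2) and in both arms of X-GFP-high cells (399 ± 26.2 and 461 ± 63.3), and Cd47 led in NPCs (70.6 ± 2.84). On the same scale Cd274 went from the sixth place in day 2 controls (10.6 ± 0.98) to the fourth with IFNγ (136 ± 27.0), and from the fifth (25.4 ± 0.55) to the third (130 ± 21.9) at day 5.

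**Figure D3:**
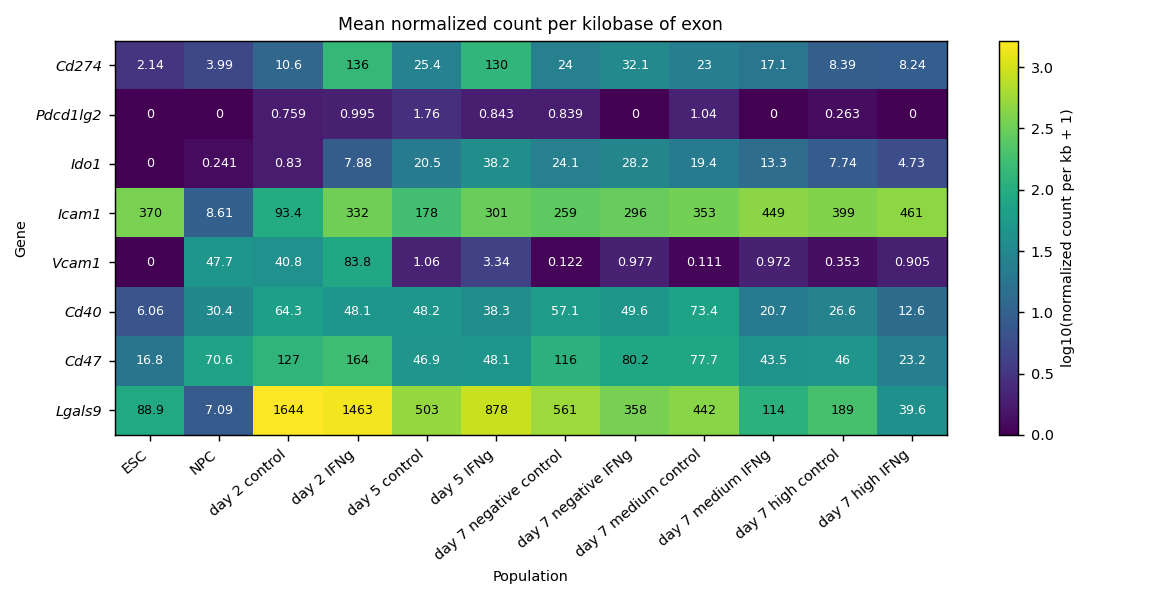
Mean normalized count per kilobase of exon for each gene (rows) in each of the 12 populations (columns), written in each cell and colored by log10 of the value + 1. Lgals9 has the highest values at day 2 (1644 and 1463), Icam1 stands at 259 to 461 in all day 7 populations, and Pdcd1lg2 is at or below 1.76 throughout.

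Ranked by mean normalized count over the 12 populations, neighbors in the order overlapped in 4 of 11 places for Cd274, Ido1 and Icam1, in 6 for Vcam1, in 5 for Cd40, in 3 for Cd47, in 2 for Lgals9 and in 10 for Pdcd1lg2. The top of the Cd274 order, IFNγ at day 2 (493 ± 98.0) and at day 5 (471 ± 79.1), was such a pair, and both stood apart from the third, X-GFP-negative cells after IFNγ (116 ± 14.7). Vcam1 was highest with IFNγ at day 2 (743 ± 72.7), apart from NPCs (423 ± 116) and day 2 controls (362 ± 96.9), which overlapped.

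Over the 12 population means of log2(normalized count + 1), Cd274 was most like genes of the guanylate binding protein family, which are known targets of IFNγ: Gbp2 (Pearson's r = 0.96), Gbp4 (r = 0.95) and Gbp7 (r = 0.95). For Icam1 they were Tnfrsf1b (r = 0.97), a TNF receptor, Rnf135 and Efr3a (both r = 0.96), and for Vcam1 Sod3, Cdh4 and Ebf2 (r = 0.98 each). Ido1 was most like Itga3, Pltp (both r = 0.97) and Clec2f (r = 0.96), Cd40 like Mbp, Gypc and Ano10 (r = 0.97 each), Cd47 like Stbd1, Cdon (both r = 0.98) and Asah2 (r = 0.97), and Lgals9 like Cavin3, Atg7 and Ifi35 (r = 0.97 each). These were the 3 highest of 13718 genes for each. Both genes of a pair were read from the same libraries, and the points differ in stage, gate and IFNγ, so that the coefficients are a description. Among the ligands themselves, Cd40 and Cd47 were the most alike (r = 0.86) and Icam1 and Vcam1 the least (r = -0.59).

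The genes around these ligands were described by 7 lists of 74 genes in all, of which 12 of 57 tested were higher and 2 lower at day 2, and 7 of 59 higher and 1 lower at day 5. In the negative, medium and high gates 18 of 60, 18 of 59 and 12 of 60 were higher and 29, 28 and 25 lower. The shares of all genes given above are the background for these counts. The lists were chosen with earlier results of these libraries in view.

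Of the 7 genes that carry the IFNγ signal, 4 were higher at day 2, 3 at day 5 and 0 lower at either time, with a median log2 fold change of 0.33 at day 2 beside 0.01 over all genes. Irf1, a transcription factor induced by IFNγ, was higher by 4.37 ± 0.12 at day 2 (adjusted p = 5.21e-06), 1.88 ± 0.09 at day 5, 1.14 ± 0.07 in X-GFP-negative cells and 0.67 ± 0.07 in X-GFP-medium cells of day 7. Socs1, a feedback inhibitor of the kinases, was higher by 2.78 ± 0.13 at day 2, 2.03 ± 0.22 at day 5 and 1.15 ± 0.26 in X-GFP-negative cells. Ifngr1, the ligand-binding receptor chain, was lower at day 7, by -0.67 ± 0.11, -1.04 ± 0.11 and -0.94 ± 0.14 in the negative, medium and high gates. In these gates 3, 4 and 2 of the 7 genes were higher and 3 were lower in each, with list medians of 0.04, 0.62 and -0.18.

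Of 16 other checkpoint and costimulatory ligands, 4 of 14 tested were higher at day 2 and 2 of 13 at day 5. Tnfrsf14, the HVEM receptor that engages BTLA, was higher by 3.52 ± 0.24 at day 2 (adjusted p = 0.000447), 2.97 ± 0.43 at day 5 and 2.24 ± 0.49 in X-GFP-negative cells. Nectin2, a ligand of TIGIT and DNAM-1, was higher by 0.69 ± 0.10 and 0.45 ± 0.09 at days 2 and 5, and Icosl, the ligand of ICOS, by 1.03 ± 0.25 at day 2. At day 7, 7 of 13, 8 of 12 and 8 of 12 tested genes were lower in the negative, medium and high gates, with list medians of -0.58, -0.83 and -0.81 beside 0.02, 0.04 and 0.03 over all genes. Among them were Vtcn1, the B7-H4 ligand (-1.45 ± 0.18, -2.46 ± 0.22 and -3.53 ± 0.58), and Cd24a, a ligand of Siglec-G (-0.98 ± 0.11, -1.94 ± 0.15 and -1.92 ± 0.14). The value of Vtcn1 in X-GFP-high cells was -2.34 without IFNγ replicate 1 and -4.73 without IFNγ replicate 2. At day 2 the call of Icosl was lost when any of the 4 libraries was left out (adjusted p = 0.108 to 0.253). At day 5 that of Nectin2 was lost without control replicate 1 (adjusted p = 0.178), control replicate 2 (adjusted p = 0.204) or IFNγ replicate 2 (adjusted p = 0.29), and that of Tnfrsf14 without control replicate 1 (adjusted p = 0.102).

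Of 13 receptors and partners, 1 of 8 tested was lower at day 2, the α4 integrin subunit Itga4 (-0.72 ± 0.18, adjusted p = 0.0828), and 1 higher at day 5, the CD47 ligand Thbs1 (1.04 ± 0.21, adjusted p = 0.0854). The call of Itga4 was lost without day 2 control replicate 1 (adjusted p = 0.23), day 2 control replicate 2 (adjusted p = 0.246) or day 2 IFNγ replicate 1 (adjusted p = 0.229). That of Thbs1 was lost without day 5 IFNγ replicate 2 (adjusted p = 0.257). At day 7, 6 of 8, 7 of 8 and 3 of 9 were lower in the 3 gates. Cd44, a hyaluronan receptor that also binds galectin-9, was lower by -1.56 ± 0.13, -2.66 ± 0.22 and -2.65 ± 0.29, the last of which was -2.02 without IFNγ replicate 1 and -3.28 without IFNγ replicate 2. Itgal, the αL subunit that binds ICAM-1, was lower by -1.39 ± 0.38 and -1.35 ± 0.21 in X-GFP-negative and X-GFP-medium cells.

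**Figure D4:**
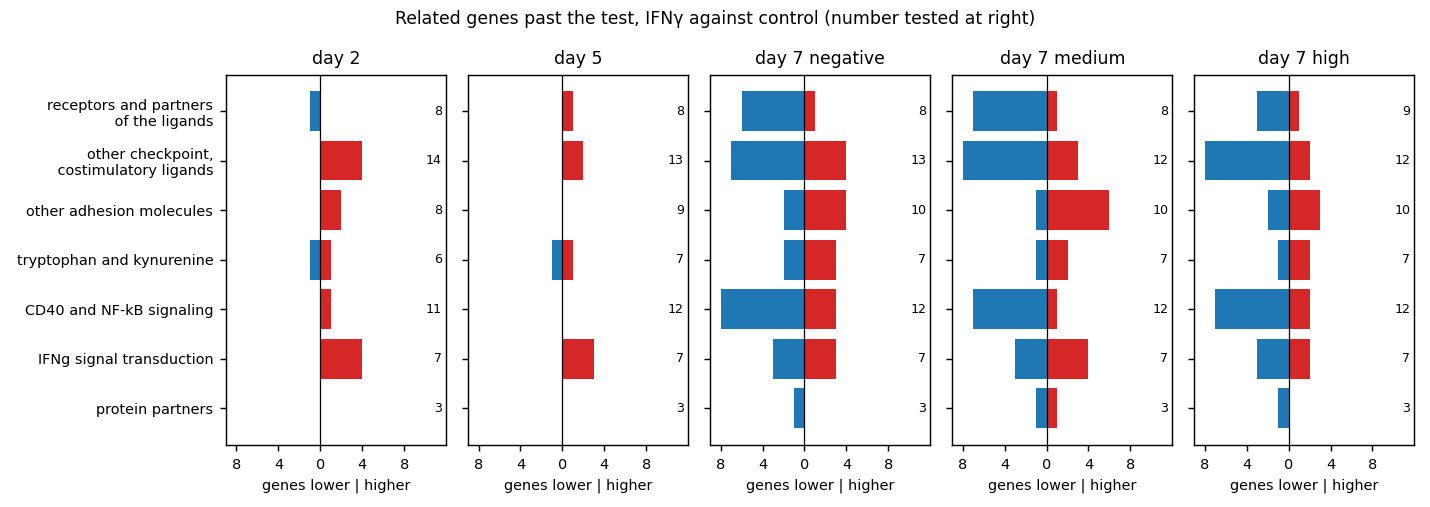
Number of genes per list that were higher (red, to the right) or lower (blue, to the left) with IFNγ than in controls at adjusted p below 0.1, for the 5 populations, with the number of genes tested at the right of each panel. At day 2 the 4 higher genes of IFNγ signal transduction face none lower, and in X-GFP-negative cells of day 7 the CD40 and NF-κB list has 8 lower of 12.

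Of 13 adhesion molecules other than ICAM-1 and VCAM-1, 2 of 8 tested were higher at day 2 and 0 of 9 at day 5, and at day 7 4, 6 and 3 of 10 were higher and 2, 1 and 2 lower in the negative, medium and high gates. Jam3, a junctional adhesion molecule, was higher by 1.13 ± 0.07 at day 2 and by 2.76 ± 0.15, 1.45 ± 0.21 and 1.38 ± 0.19 at day 7. Alcam, the ligand of CD6, was higher by 0.84 ± 0.14 at day 2 and by 1.5 ± 0.20 and 1.74 ± 0.24 in X-GFP-negative and X-GFP-medium cells, and its day 2 call was lost without control replicate 2 (adjusted p = 0.127).

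In the tryptophan and kynurenine list, 1 of 6 tested genes was higher and 1 lower at day 2, and 1 of 7 each way at day 5. The higher gene was Wars at both times, the tryptophanyl-tRNA synthetase, by 2.43 ± 0.07 (adjusted p = 5.96e-06) and 0.71 ± 0.08, and the lower gene Slc7a5, a transporter of large neutral amino acids, by -0.32 ± 0.08 and -0.44 ± 0.08. The day 2 call of Slc7a5 was lost without day 2 control replicate 2, day 2 IFNγ replicate 1 or day 2 IFNγ replicate 2 (adjusted p = 0.129 to 0.189). Its day 5 call was lost without day 5 control replicate 1, day 5 control replicate 2 or day 5 IFNγ replicate 2 (adjusted p = 0.174 to 0.218). At day 7 Slc7a5 was higher in all 3 gates, by 0.71 ± 0.11, 0.45 ± 0.08 and 0.45 ± 0.09. Haao, an enzyme downstream of kynurenine, was lower in X-GFP-negative cells (-1.69 ± 0.33).

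Of 12 genes of CD40 and NF-κB signaling, 1 of 11 tested was higher at day 2, the feedback inhibitor Tnfaip3 (1.16 ± 0.14, adjusted p = 0.00671), and 0 of 12 changed at day 5 by limma. At day 7, 8, 7 and 7 of 12 were lower in the negative, medium and high gates and 3, 1 and 2 higher. Tnfaip3 was among the lower genes in each (-0.74 ± 0.15, -0.84 ± 0.16 and -0.92 ± 0.14). Of 3 genes whose products stabilize or modify PD-L1 or CD47, 0 were called at days 2 and 5, and Cmtm4, which protects PD-L1 from degradation, was lower in all 3 gates of day 7 (-1.58 ± 0.08, -1.06 ± 0.06 and -0.74 ± 0.07).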

How the data were processed

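RNA was sequenced from 24 libraries as stranded, ribosomal RNA-depleted total RNA. Per the study's methods, the authors aligned read pairs to a variant-masked mm10 genome with STAR, counted reads per gene with HTSeq 0.6.1 and normalized them with DESeq2. The deposited signal values are these counts divided by a size factor per library, and 100% of the values were whole multiples of 1 read (tolerance 1e-06). The annotation release and the strand setting of the counting are not given in the sources used here. A deposited table of allelic fractions was not used, and 0 columns of other samples were present. Symbols came from GENCODE vM21 and covered 95.2% of the identifiers.

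Log2(normalized count + 1) was tested with limma 3.58.1 (lmFit, eBayes with trend) in R 4.3.3, over genes with a mean above 10 in the libraries of each comparison, with a Benjamini-Hochberg threshold of 0.1, as the filter and threshold of the study. Interactions were contrasts of the same model. With 2 libraries against 2, an exact two-sided permutation test of a single gene cannot give a p below 0.333. Alternatives were a pseudocount of 0.1, no filter, rescaling to equal totals, 1 fit of all 24 libraries, a replicate block, DESeq2 1.42.0 and edgeR 4.0.16 on the recovered reads, and leaving out each library. Of the related lists, at most the 4 largest called changes per list and comparison were named, and for likeness the 3 highest coefficients. Read ratios have exact 95% intervals, and bounds use a floor of 3 reads over a group. Fits were tested on simulated data. The 8 genes and all lists were chosen with earlier results of these data known. Values of 1 gene of the related lists are not reported here.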

Additional observations from a re-analysis of the deposited data

Results flagged for a closer look

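The IFNγ response of several ligands differed between populations by a test of the difference itself. Of all genes, 0.676% differed between day 5 and day 2, 40.3% between X-GFP-negative cells and day 5, and 22.8% within day 7. For Lgals9 it was higher at day 5 than at day 2 by 0.964 on the log2 scale, lower in X-GFP-negative cells of day 7 than at day 5 by -1.44, and lower in the high than in the negative gate by -1.7. For Cd274 and Icam1 it was lower in X-GFP-negative cells than at day 5, by -1.91 and -0.571. For Cd47 it was lower in X-GFP-negative cells than at day 5 by -0.56, and in the high than in the negative gate by -0.462. The first of these Cd47 calls was lost with rescaled values (adjusted p = 0.106) and the second without the filter (adjusted p = 0.138). The Lgals9 call between day 5 and day 2 was also lost without the filter (adjusted p = 0.129) and with all 24 libraries in 1 fit (adjusted p = 0.332). That fit also lost the Icam1 call (adjusted p = 0.222).

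Other pairs of populations are listed because both IFNγ libraries of a ligand lay above both controls in one and below them in the other. These differences were not tested, and the share of all genes with such a reversal was not counted. At day 7, 31.1%, 33.3% and 18.1% of all genes were higher and 30.8%, 29.6% and 20.4% lower in the negative, medium and high gates. For Cd274 the response in X-GFP-medium cells was below that of day 2 by -4.08, of day 5 by -2.77 and of X-GFP-negative cells by -0.853. For Ido1 the response in X-GFP-medium cells was below that of day 5 by -1.44 and of X-GFP-negative cells by -0.772, and the response in X-GFP-high cells was below that of day 5 by -1.6. For Cd47 the responses in the negative, medium and high gates of day 7 were below that of day 2 by -0.896, -1.21 and -1.36. For Lgals9 those in the medium and high gates were below that of day 5 by -2.82 and -3.14.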

How the results depend on the processing

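Over all alternatives, changes were counted for the ligands and not for the named genes of the related lists. Log2 fold changes of ligands that passed the test kept their direction and their call in 610 of 665 values. They lost the call with the same direction in 55. Of ligand values that had not passed, 391 were alike, 31 passed and 21 changed sign. The cause of these changes was not tested.

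Without the filter, 1 ligand was called at day 5 (3 as reported), 0 in the day 5 to day 2 interaction (1 as reported) and 1 in the interaction within day 7 (2 as reported). With DESeq2 the numbers were 2 in X-GFP-negative cells (4 as reported), 3 in the day 5 to day 2 interaction and 1 within day 7. Leaving out each library gave 3 to 4 calls at day 2, 1 to 4 at day 5, 2 to 4, 4 to 6 and 3 to 5 in the negative, medium and high gates, 0 to 1 in the day 5 to day 2 interaction, 3 to 4 in that of X-GFP-negative cells and day 5, and 1 to 2 in that within day 7. It gave 5 to 6 between ESCs and NPCs, 4 to 6 and 6 to 7 for the next steps of the control arm, 2 to 3 for X-GFP-negative controls against day 5, 6 between the gates, 4 to 5 for ESCs against X-GFP-high controls and 3 to 4 for the treated arm after day 5. Leaving 1 library in a group assumes that it varies like the others.

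Signs changed among values without a call. With rescaled values Icam1 turned to 0.0457 from day 5 to X-GFP-negative cells after IFNγ and to -0.154 in the interaction within day 7. With libraries left out, values ranged from -0.0468 to 0.121 for Cd47 at day 5, from -0.311 to 0.216 for Cd274 in X-GFP-high cells, from -0.505 to 0.0597 for Vcam1 from NPCs to day 2, and for X-GFP-negative controls against day 5 from -0.229 to 0.0527 for Cd274, -0.0555 to 0.549 for Ido1 and -0.0345 to 0.561 for Cd40. They ranged from -0.131 to 0.0822 for Icam1 in the treated arm after day 5, from -0.148 to 0.992 for Vcam1 and -0.176 to 0.42 for Cd40 in the day 5 to day 2 interaction, from -0.19 to 0.406 for Cd40 in that of X-GFP-negative cells and day 5, and from -0.125 to 0.156 for Icam1 in that within day 7. Rescaling moved the median of all genes by -0.130 between ESCs and NPCs, by -0.126 from day 2 to day 5 and by 0.106 between the gates.

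Replicate numbers are shared by the groups, but the labels do not say that they pair libraries. Deviations of same-numbered libraries correlated at 0.406 at day 2, 0.363 at day 5, 0.187, 0.107 and 0.0239 in the gates of day 7, and -0.191 to 0.127 elsewhere. With the replicate block 6 ligands were called at day 2, where Cd40 (adjusted p = 0.00827) and Lgals9 (adjusted p = 0.0167) were then called lower, 5 at day 5 and 2 in the day 5 to day 2 interaction, and over all genes 2652 higher and 2343 lower values passed at day 2, against 1810 and 1569 at day 5.

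Over all genes, the day 2 calls were 790 higher and 542 lower, and 481 and 212 without the filter. Leaving out day 2 IFNγ replicate 2, day 2 control replicate 1 or day 2 control replicate 2 gave 463 and 206, 478 and 173, and 503 and 204. At day 5 they were 249 and 81, 134 and 7 without the filter, 1422 and 1078 with all 24 libraries in 1 fit, and 556 and 356 with DESeq2. Without day 5 control replicate 1 or 2 they were 145 and 5, and 154 and 35. X-GFP-high cells had 2830 and 3175, and 967 and 1774 without control replicate 1. The treated arm after day 5 had 3571 and 3745, and 1654 and 1678 without X-GFP-negative IFNγ replicate 1. The filter on the mean left Pdcd1lg2 untested in every comparison, and Vcam1 and Ido1 in some. Without it, Ido1 was called higher with IFNγ at day 2 (2.64, adjusted p = 0.0733). Vcam1 was higher in X-GFP-negative (2.17, adjusted p = 0.0168) and X-GFP-medium cells (2.47, adjusted p = 0.0261), but not called in X-GFP-high cells (1.13, adjusted p = 0.217). Pdcd1lg2, with 0 reads against 4 in each, was called lower in X-GFP-medium cells (-1.51, adjusted p = 0.0919) and in the treated arm after day 5 (-1.41, adjusted p = 0.0828).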
